A study of Homo sapiens with 3 samples.

Results

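Guidance ligands and receptors are cell-surface and secreted proteins that steer growing axons, and in epithelia and tumours they set cell sorting, adhesion and movement. Ephrins are membrane-bound ligands of the Eph receptor tyrosine kinases, and both partners can signal into their own cell. Semaphorins act through plexins, often with a neuropilin as co-receptor, while slits act through ROBO receptors and netrins through DCC, neogenin and the UNC5 receptors. In the intestine, EPHB2 and EPHB3 help to hold crypt cells in their positions.

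Members were the genes in the authors' deposited table that had at least 1 coding RefSeq transcript (an NM row) and a symbol of these families. They numbered 37 of the 11487 genes with such a row, and held 49 of the 17868 NM rows that could be named. By role there were 16 ligands (6 ephrins, 8 semaphorins, SLIT1 and NTN1) and 20 receptors (8 Eph receptors, 6 plexins, 2 neuropilins, ROBO1, UNC5A, UNC5B and NEO1). The remaining member, UNC50, shares only the letters of the UNC5 symbols. It encodes no netrin receptor, so it entered neither role, and the authors' deposited table put it at 0.083. RefSeq lists 70 protein-coding symbols that fit the same families, and the other 33, DCC, NTN4, SLIT2 and SEMA3F among them, were not analysed here.

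The cells were SW480, an established line from a human colon adenocarcinoma, kept in McCoy's medium with serum. They carried either control shRNA (shControl, 2 libraries) or 1 shRNA clone against RBMS1 (shRBMS1, 1 library), an RNA-binding protein of A+U-rich sequence, and total RNA was taken 48 hours after transduction. The question was which transcripts change in level when RBMS1 is reduced. The labels do not tell if both controls carry 1 hairpin, and a single hairpin was used against RBMS1.

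Every value below is a log2 fold change, knockdown over control, that the authors computed per transcript. A gene with several NM rows is given as their median, worked out here. Because there was 1 knockdown library and no value per library was analysed, no spread between replicates, test or error can be given, and the depth is unknown. The table has no levels, so near-absence of a transcript from either arm and a truly large change cannot be told apart, and in bulk RNA fewer cells with a transcript cannot be told apart from less of it per cell. The direction rests on RBMS1 itself, at −1.49 or 35.6% of control, which was taken as the lower arm. Of 12 colon epithelium markers 7 had a value, with a median of −0.43. At or below −1 lay 2 of them (VIL1, and KRT18 with rows of −2.17 and −0.015), beside 4.06% of all genes. None of 6 fibroblast or 6 endothelial markers had a value, against 2 of 6 leukocyte markers (CD68 at −0.54 and LYZ at −0.68) and 2 of 6 neuronal and glial ones (TUBB3 at 0.48 and SNAP25 at 1.92), all by gene values from the authors' deposited table. The part of these markers in the results below was not tested.

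Because RBMS1 binds A+U-rich RNA with AUAUA among its motifs, the 3′ UTRs of the members were searched for ATATA on the transcript strand, overlapping matches counted. The windows below hold the first match after the stop codon, 25 bases each from GENCODE 29 transcripts (hg38), with the match in capitals. They are shown for the members with a transcript at or beyond 1 in size that have a match (NEO1, NRP2, ROBO1), those with 10 or more matches (EFNB2, EPHA4, SEMA3A), and the guidance gene with most matches per base (EPHA1).
EFNB2, chr13:106491999-106492023, minus strand: gccgctgatgATATAttcgggcagg
EPHA1, chr7:143391212-143391236, minus strand: tgaggggttaATATAtatacataca
EPHA4, chr2:221425400-221425424, minus strand: tggatttaaaATATAtatatacgta
NEO1, chr15:73304279-73304303, plus strand: aatattaagaATATAtaatggaaaa
NRP2, chr2:205777086-205777110, plus strand: caagaaaataATATActgtacaagt
ROBO1, chr3:78598510-78598534, minus strand: tattgatcaaATATAgaaagttgat
SEMA3A, chr7:83961287-83961311, minus strand: aacaaatgcaATATAcatgaacttt

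Ligands and receptors had nearly the same median. Within 0.5 of 0 lay 23 of the 37 members (62.2%), 12 of the 16 ligands and 10 of the 20 receptors, beside 77.4% of all genes. The median was −0.023 over the 16 ligands and 0.013 over the 20 receptors, beside 0.0034 over all 11487 genes. Genes below 0 were 11 of the 16 ligands and 10 of the 20 receptors, beside 49.6% of all genes. At or beyond 1 in size lay 2 of the 37 members, UNC5B above and ROBO1 below, or 5.41%. Over all genes the share was 7.68%, made up of 3.62% higher and 4.06% lower, so the members' share was near the background. With the mean of a gene's transcripts 3 members lay there, beside 8.86% of all genes: UNC5B, SEMA3B at 1.03 and NRP2 at −1.91, while ROBO1 stood at −0.82.

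The receptors were spread more widely than the ligands. Their quartiles lay at −0.59 and 0.30, against −0.20 and 0.12 for ligands and −0.26 and 0.22 for all genes. At a lower limit of 0.58, which is about 1.5-fold, 8 of the 20 receptors lay beyond it, with 3 higher (EPHA10, EPHB6 and UNC5B) and 5 lower (EPHA1, NRP2, PLXNA3, PLXNB3 and ROBO1). Only 2 of the 16 ligands did, EFNB2 above and NTN1 below. Over all 37 members the share was 27.0% and over all genes 18.5%, made up of 7.63% higher and 10.9% lower. EPHB2, at −0.577 in the authors' deposited table, lay just inside this limit. Genes are not replicates, and the difference in spread was not tested. Transcripts of the members were richer in G and C than most, with a median of 60.0% against 48.8% over all genes. The 3121 other genes within the members' quartiles of G+C content had a median of −0.086, and 21.1% of them lay beyond 0.58. For the 3609 other genes within the members' quartiles of transcript length, the median was −0.023 and the share 17.7%. The part of G+C content or length in the members' values was not tested.

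**Figure D1:**
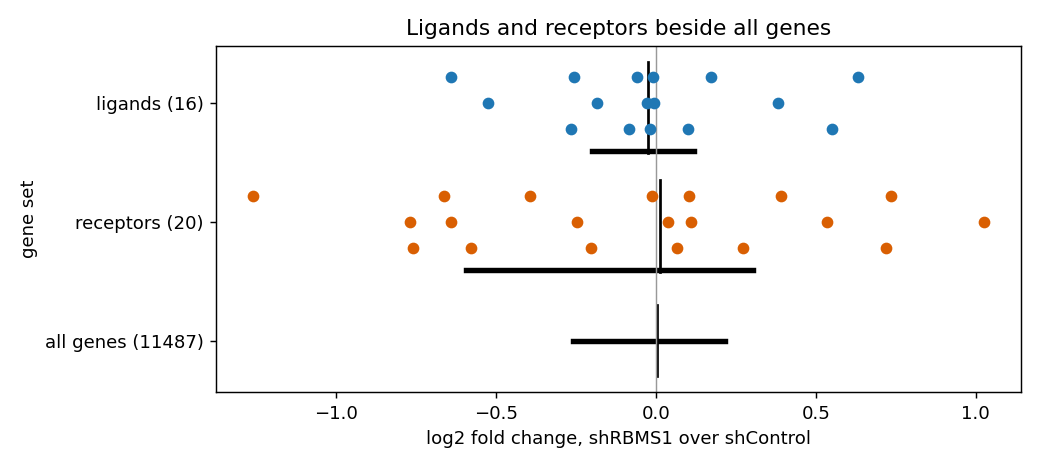
Log2 fold change (horizontal axis, shRBMS1 over shControl) of each guidance ligand (blue) and receptor (orange), 1 point per gene, with vertical offsets for legibility alone. Thick bars span the quartiles and thin lines mark the medians, also for all 11487 genes: the quartiles of receptors, −0.59 and 0.30, lie further apart than those of ligands, −0.20 and 0.12.

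Among the ephrins, 4 of 6 lay above 0, beside 5794 of all 11487 genes, and the family median was 0.14. EFNB2, the transmembrane ligand of EPHB4, was highest at 0.63 in the authors' deposited table, 155% of control. Next in the authors' deposited table stood EFNA1, a lipid-anchored ligand of EPHA2, at 0.55 or 146% of control. Their ranks among all genes were percentiles 93.1 and 91.9. The authors' deposited table put EFNA3 at 0.17 and EFNB1 at 0.10, and at the low end EFNB3 at −0.25. EFNA4 had transcripts on either side of 0 in the authors' deposited table, NM_005227 at 0.29 and NM_182689 at −0.31, so its median of −0.0058 describes neither. EFNA1, EFNA3 and EFNA4 lie side by side on chromosome 1, between 155063740 and 155134899 (hg38).

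The 8 Eph receptors were divided evenly around 0, with 4 above, 4 below and a median of 0.027. Each rests on 1 transcript. EPHA1, on chromosome 7 at 143391129 to 143408856, was lowest, with −0.77 in the authors' deposited table, 58.7% of control. The crypt receptors EPHB2 and EPHB3 followed in the authors' deposited table at −0.58 and −0.39, or 67.0% and 76.1% of control. EPHA4, which binds ephrins of both classes, stood at −0.013 in the authors' deposited table. EPHA2, a receptor long studied in carcinoma cells, was at 0.066 and EPHB4 at 0.10 in the authors' deposited table. At the other end the authors' deposited table had EPHB6 at 0.73 (166% of control) and EPHA10 at 0.72 (165% of control). These highest members of the family are the Eph receptors known to lack kinase activity, a trait picked out here after the values were seen. By its GENCODE match the EPHB6 transcript, NM_001280794, encodes 729 residues. Those of the other Eph receptors with a match encode 976 to 1008, so the EPHB6 value is that of a shorter form. The A and B classes did not separate, each with 2 above 0 and 2 below.

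By gene median no semaphorin reached 0.58 in either direction, although single transcripts of SEMA3B, SEMA4F and SEMA7A passed it. Of the 8, 7 lay below 0, beside 49.6% of all genes, and the median was −0.071. Within 0.5 of 0 also lay 7 of the 8, beside 77.4% of all genes. The class 4 members, which span the membrane, were all below 0: in the authors' deposited table SEMA4B stood at −0.019, SEMA4C at −0.058 and SEMA4D, the ligand of PLXNB1, at −0.083. SEMA4F was lowest of the family with a median of −0.53, from −0.25 for NM_004263 and −0.80 for NM_001271662 in the authors' deposited table. SEMA6B, also transmembrane, was at −0.18 in the authors' deposited table, and SEMA3A, the secreted ligand that collapses growth cones through NRP1, at −0.028.

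A pair of semaphorins had transcripts far apart. SEMA3B, a secreted semaphorin on chromosome 3 at 50260226 to 50277546, had a median of 0.38 and was the single member of the family above 0. The authors' deposited table gave 0.18 for NM_001290060, 0.38 for NM_001290061 and 2.54 for NM_001290062. By its GENCODE match, the last of these starts 4113 bases downstream of NM_001290060 and encodes 406 residues in place of 749, so the high value belongs to a short form alone. SEMA7A, which is anchored to the membrane by a lipid, had NM_001146029 (652 residues) at −1.47 and NM_001146030 (501 residues) at 0.94 in the authors' deposited table, for a median of −0.26. NM_001290061 has no annotated 3′ UTR, and those of the other transcripts of both genes held no ATATA.

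Plexins and neuropilins together had a median of −0.23, with 5 of 8 below 0, beside 49.6% of all genes. PLXNB3 and PLXNA3, both on chromosome X, were the lowest plexins at −0.66 and −0.64 in the authors' deposited table, near 63.2% and 64.1% of control. PLXND1 was at −0.25 and PLXNB2, a receptor of SEMA4C, at −0.20 in the authors' deposited table. On the other side stood PLXNA1 at 0.11 and PLXNB1, the receptor of SEMA4D, at 0.53 in the authors' deposited table. Within the B class, PLXNB1 and PLXNB3 thus lay on opposite sides of 0, and within the A class PLXNA1 and PLXNA3 did so.

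The neuropilins also lay on opposite sides. NRP1, co-receptor for SEMA3A and VEGF, had transcripts close together in the authors' deposited table, at 0.24 (NM_003873), 0.27 (NM_001024629) and 0.37 (NM_001244973). All 3 were above 0, with a median of 0.27 or 121% of control. NRP2, on chromosome 2 at 205682501 to 205798131, had a median of −0.76 or 59.1% of control, and all 3 of its transcripts were below 0. NM_003872 stood at −0.76 and NM_201267 at −0.71 in the authors' deposited table, whereas NM_018534 stood at −4.27, which is 5.18% of control. NM_018534 and NM_201267 end their coding sequence at the same base and differ by 5 residues (906 against 901), while NM_003872 ends its coding sequence 18532 bases away. The low value is thus that of 1 transcript and not shared by the other one with the same last coding base. Its 3′ UTR, 3188 bases in GENCODE, holds 3 matches to ATATA. The first, printed above, also lies in the shorter annotated 3′ UTR of NM_201267, which holds 1 match, and that of NM_003872 holds none.

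ROBO1, the receptor of slits, was the lowest gene of all members. The gene spans chromosome 3 from 78597239 to 79767998, and its median of −1.26 (41.8% of control) stood at percentile 2.59 of all genes. Its 3 transcripts did not share a direction in the authors' deposited table: NM_002941 was at −2.04, NM_001145845 at −1.26 and NM_133631 at 0.85. NM_002941 starts 748.8 kb upstream of NM_133631 by their GENCODE matches. NM_001145845 starts 471 bases from NM_133631. The part of the start site in these values was not tested. With the transcript nearest to 0 in place of the median, ROBO1 would stand at 0.85, on the other side of control. Its ligand SLIT1, as the only slit measured, was at −0.0091 in the authors' deposited table.

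In the netrin branch the ligand was low and its receptors were at or above control. NTN1, netrin-1, was at −0.64 in the authors' deposited table, 64.2% of control. UNC5B, a dependence receptor that triggers cell death when netrin-1 is absent, was the highest gene of all members at 1.03 in the authors' deposited table, 204% of control, at percentile 96.5. UNC5B lies on chromosome 10 at 71212570 to 71302864, and the value rests on 1 transcript, NM_001244889. UNC5A was at 0.039 in the authors' deposited table. NEO1, neogenin, which also binds repulsive guidance molecules, had a median of 0.39 from transcripts on either side of 0 in the authors' deposited table, NM_002499 at 1.18 and NM_001172624 at −0.40. These differ by 11 residues (1461 against 1450).

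**Figure D2:**
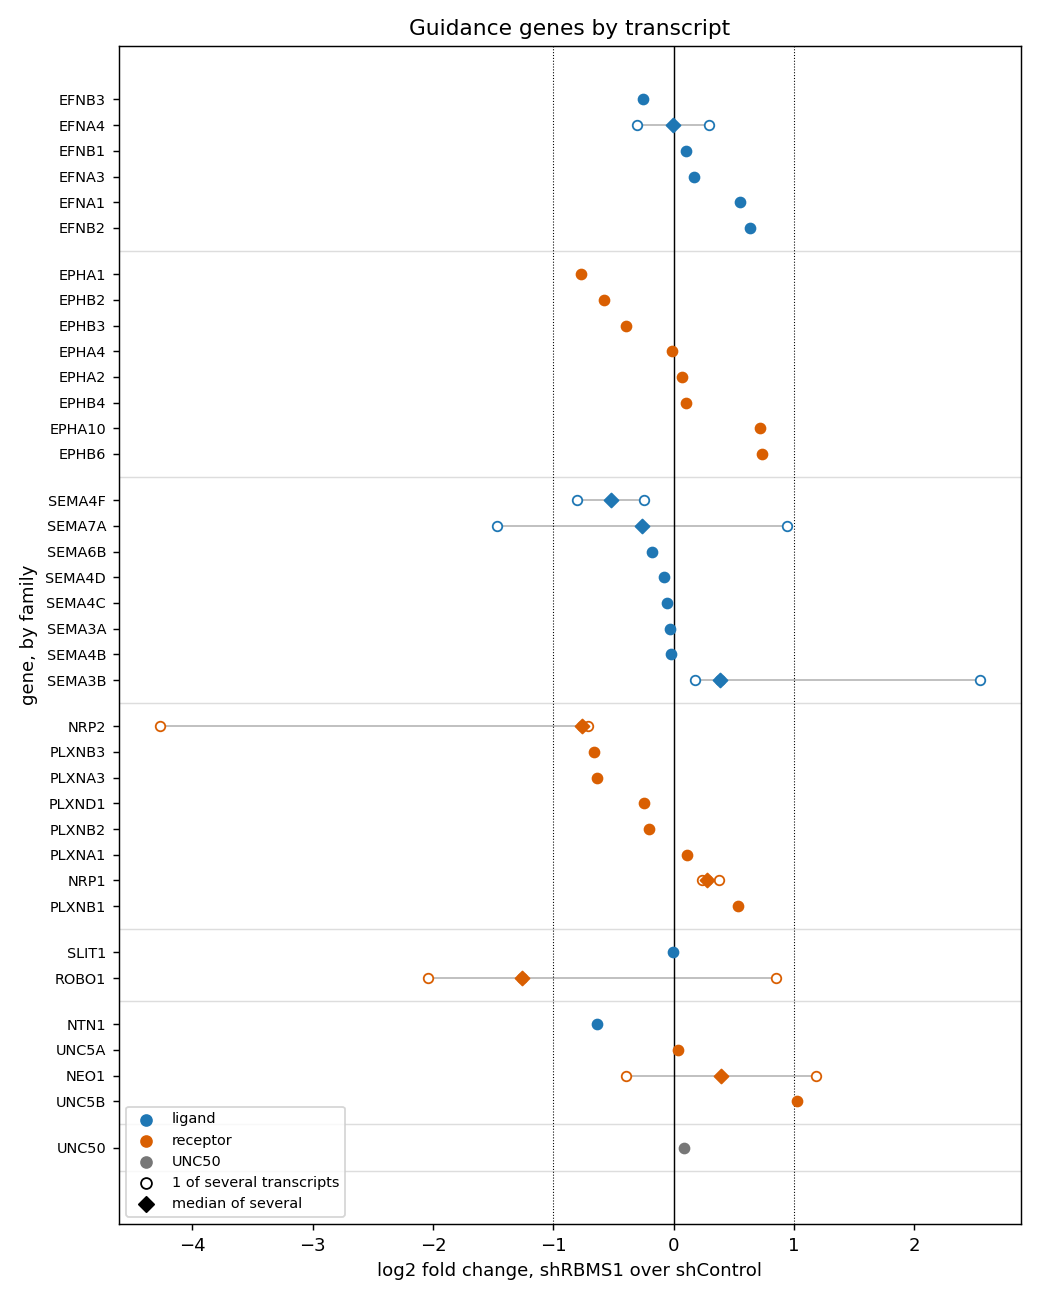
Log2 fold change (horizontal axis, shRBMS1 over shControl) of all 37 members, ordered by family and, within it, ligands (blue) before receptors (orange). Open circles are single transcripts of genes with several, diamonds their median, filled circles genes with 1 transcript, and dotted lines mark 1 and −1: NRP2 (−4.27), SEMA3B (2.54) and ROBO1 (−2.04) hold the transcripts farthest from 0.

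Counted by transcript, 7 of the 49 member rows lay at or beyond 1 in size (14.3%), beside 15.7% of all NM rows (7.77% higher and 7.93% lower). At 0.58 the members' count was 19 of 49 (38.8%), beside 29.4% of all NM rows. At 2 it was 3 of 49, beside 5.74% of all NM rows. No member gene reached 2 by its median, a size that 2.41% of all genes reached. The transcripts at or above 1 were NM_001290062 of SEMA3B, NM_002499 of NEO1 and NM_001244889 of UNC5B. At or below −1 were NM_018534 of NRP2, NM_002941 and NM_001145845 of ROBO1, and NM_001146029 of SEMA7A. Of these rows at or beyond 1, all but that of UNC5B belong to genes whose transcripts lay more than 1 apart. Of the 8 members with several NM rows, 5 had rows more than 1 apart (SEMA3B, SEMA7A, NRP2, ROBO1 and NEO1), beside 48.4% of the 4185 such genes in the table. The way reads were divided between transcripts of 1 gene is not given in the labels or the header.

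Set side by side as known pairs, a list drawn up after the values were seen, ligands and receptors had no shared order. The ligand lay above its receptor in 6 of 10 pairs and below it in 4, and in 6 pairs the partners lay on opposite sides of 0. All 3 ephrin pairs listed had the ligand higher: EFNA1 over EPHA2 by 0.48, EFNB1 over EPHB2 by 0.68 and EFNB2 over EPHB4 by 0.53. The list leaves out EPHB6 (0.73) and EPHA10 (0.72), which stood above every ephrin, and EFNB3 (−0.25). NTN1 enters 2 of the pairs, with UNC5B and with NEO1. SEMA4C stood 0.14 above PLXNB2, whereas SEMA4D stood below PLXNB1, with a difference of −0.62. The widest gaps were those of NTN1 and UNC5B, at −1.67 for the ligand minus the receptor, and of SLIT1 and ROBO1, at 1.25. These differences come from 1 comparison and have no error, and genes with several transcripts enter by their median. With NM_133631 of ROBO1 (0.85), SLIT1 would lie below its receptor. With NM_001172624 of NEO1 (−0.40), NTN1 and NEO1 would both lie below 0.

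**Figure D3:**
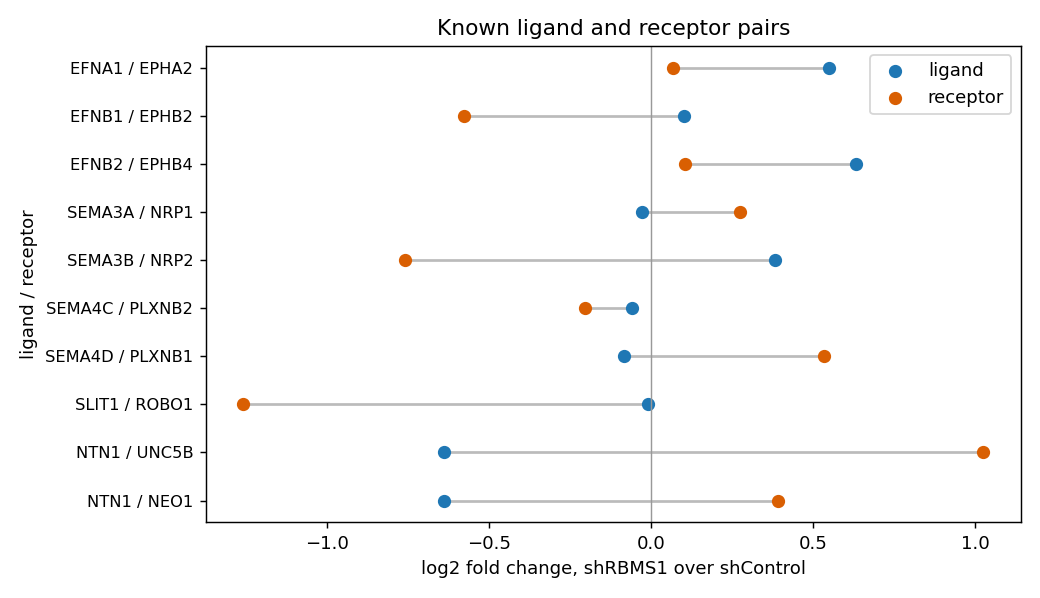
Log2 fold change (horizontal axis, shRBMS1 over shControl) of the ligand (blue) and the receptor (orange) in 10 known pairs, joined by a grey line. The ligand lies to the right of its receptor in 6 pairs, all 3 listed ephrin pairs among them, and NTN1 with UNC5B has the longest line, −1.67. EPHB6 and EPHA10, which stood above every ephrin, are in no listed pair. Genes with several transcripts are drawn at their median.

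Members with many ATATA matches lay on either side of 0, and no correlation of matches with values was worked out. Of 36 members with an annotated 3′ UTR, 19 held at least 1 match (52.8%), beside 6574 of 11188 genes (58.8%). The median was −0.013 with and −0.019 without a match, and over all genes 0.013 and −0.0097. Among receptors alone it was −0.13 for the 10 with and 0.10 for the 9 without, and among ligands −0.018 and −0.039 for 8 each. EFNB2 and SEMA3A, with 13 matches each, stood at 0.63 and −0.028, EPHA4 with 12 at −0.013 and PLXNA1 with 9 at 0.11. EPHA1 had 6 matches in 345 bases, the densest of the guidance genes at 17.4 per 1000 bases, and was at −0.77. Matches were counted in a gene's longest 3′ UTR, whereas its value is the median of all its transcripts. For ROBO1, the lowest gene, the 3′ UTR of NM_002941 held 2 and those of its other transcripts none, NM_001145845, whose value is the gene's median, among them. NRP2, counted with 3, likewise has as its median the value of NM_003872 (−0.76), whose 3′ UTR held none. UNC5B, the highest, held none in 3587 bases. A match is a run of letters and not a measured binding site.

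**Figure D4:**
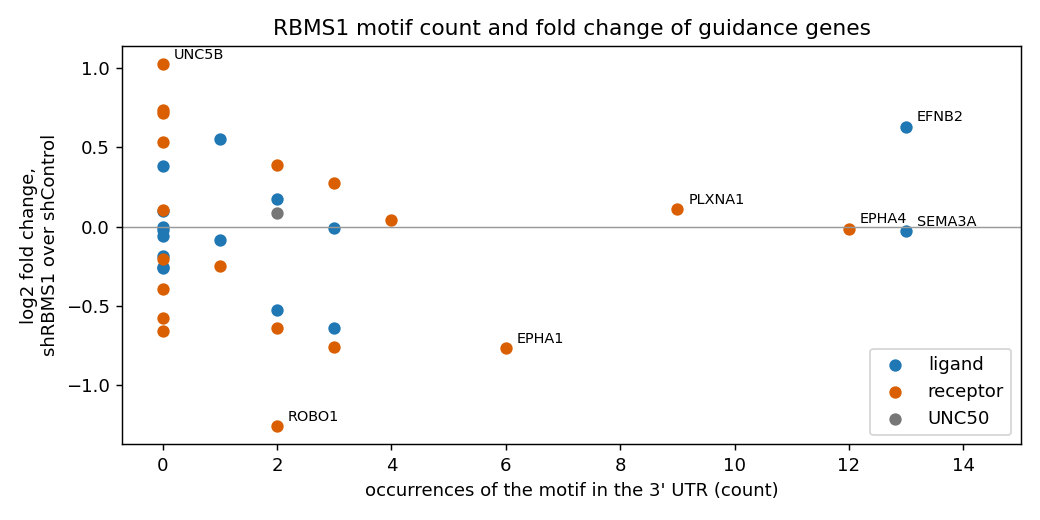
Number of ATATA matches in the longest annotated 3′ UTR (horizontal axis, count) against log2 fold change (vertical axis, shRBMS1 over shControl) for 36 members, ligands in blue, receptors in orange and UNC50 in grey. Of the 4 genes with most matches, SEMA3A (13) and EPHA4 (12) stand near 0 at −0.028 and −0.013, PLXNA1 (9) at 0.11 and EFNB2 (13) at 0.63.

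Proteins that act beside these receptors were read from 4 lists. Together 99 of their genes were measured, of which 4 lay at or above 1 and 8 at or below −1. That is 12.1%, beside 7.68% of all genes (3.62% higher and 4.06% lower). Beyond 0.58 lay 22.2% of them, beside 18.5% of all genes. Several of the genes at or beyond 1 had rows more than 1 apart. Partners of Eph receptors and ephrins had a median of 0.0085, with 3 of 30 at or above 1 and 3 at or below −1. Here CHN2, a RAC GTPase-activating protein, was highest at 3.89 in the authors' deposited table, followed by VAV2 and CHN1 at 1.64 and 1.17. GRB10, an adaptor, was lowest at −1.05, near ABL1 at −1.04 and PDZD2 at −1.02, by medians of the authors' deposited table. The authors' deposited table had rows of −0.20 and 3.48 for VAV2, an exchange factor recruited by Eph receptors.

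Partners of plexins and neuropilins had a median of −0.21, with 19 of 29 below 0 (65.5%, beside 49.6% of all genes). None lay at or above 1 and 2 at or below −1, beside 3.62% and 4.06% of all genes. DPYSL5, of the collapsin response mediator family, was lowest at −8.52, from rows of −9.64 to 1.22 in the authors' deposited table. MICAL2, which oxidises actin, stood at −1.01 and the cofilin kinase LIMK2 was highest at 0.87, by medians of the authors' deposited table. The 3 rows of LIMK2 spanned −0.91 to 0.90. Partners of ROBO and netrin receptors had a median of −0.17, with 17 of 27 below 0 (63.0%, beside 49.6% of all genes). None lay at or above 1 and 4 at or below −1, beside 3.62% and 4.06% of all genes. These 4 were the exchange factor DOCK1 at −1.25, MYO9B at −1.13, SRGAP1, which binds ROBO1, at −1.08, and ABL1, by medians of the authors' deposited table. ABL1 is also in the list of Eph and ephrin partners. The rows of DOCK1 (−2.72 and 0.22) and MYO9B (−3.05 and 0.79) lay on either side of 0 in the authors' deposited table. TRIM9 was highest at 0.92. Further guidance ligands and co-receptors had a median of −0.015 over 15 genes, from −0.96 for the syndecan SDC3 to 1.34 for the adhesion molecule L1CAM, whose 3 rows in the authors' deposited table spanned −0.91 to 3.56.

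**Figure D5:**
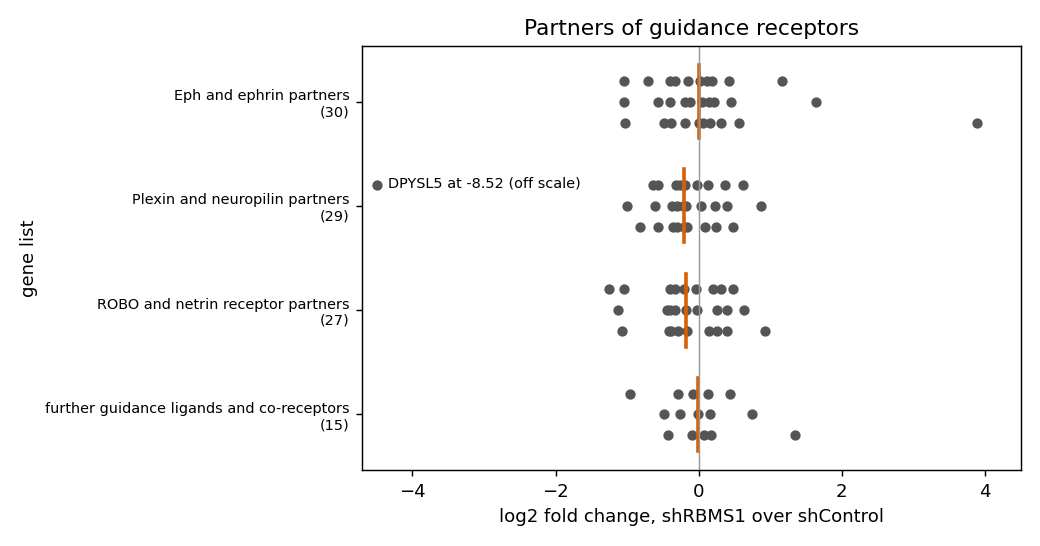
Log2 fold change (horizontal axis, shRBMS1 over shControl) of genes in 4 lists of guidance partners, 1 point per gene, with the median of each list as an orange line and DPYSL5 (−8.52) drawn at the left edge. Medians of the plexin list (−0.21) and the ROBO and netrin receptor list (−0.17) lie below 0, and those of the other lists near it.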

How the data were processed

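RNA-seq of SW480 cells gave 1 series table of 20104 RefSeq transcripts, in which the authors deposited a log2 fold change per transcript. Build hg38 and the tools STAR 2.5, Cufflinks and Cuffdiff are named, without roles or settings, per the submitters' processing notes. The file header gives neither base nor direction. Base 2 was read from the spacing of values: 20 rows lay 1 away (tolerance 1.5e-05) from values present 3 or more times, against 4 rows at ln 2 and 5 at log10 of 2. Direction was set by RBMS1, so it does not check the labels, and the other direction would turn every sign.

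Of 17994 NM rows, 17868 (99.3%) were named through RefSeq (GRCh38.p14). Genes were given the median of their NM rows. Gene positions came from the same RefSeq table. GENCODE 29 gave transcript structures and 3′ UTRs, with 48 of 49 member rows linked, the longest 3′ UTR per gene being searched. Every member could be named; beyond them RBMS1, the highest and lowest gene of each partner list, and, chosen after values were seen, other partner genes at or beyond 1, cell type markers and genes overlapping a member. The members, lists and pairs were chosen with earlier results of these data known. Libraries were grouped by the shRNA label. Counts and medians were checked on simulated data. Alternatives were other values per gene, thresholds, centring and role definitions. Python 3.11.15, numpy 2.4.6, pandas 2.3.3 and matplotlib 3.10.9 were used.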

Additional observations from a re-analysis of the deposited data

How the results depend on the processing

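The count of member genes at or beyond 1, which is 2, became 1 with the transcript nearest to 0 (5.10% of all genes) or with only genes of 1 transcript (5.92%), 3 with the mean of transcripts (8.86%), 6 with the transcript farthest from 0 (19.3%), 10 at a threshold of 0.58 (18.5%) and 0 at 2 (2.41%). Member transcripts beyond the threshold went from 7 to 19 at 0.58 (29.4% of all NM rows) and to 3 at 2 (5.74%). The ligand minus receptor median, −0.037, turned to 0.062 with means of genes, and the receptor median to −0.013 with the non-coding row of PLXNC1 added, a setting chosen after seeing the data. With the transcript nearest to 0, the netrin family median became −0.18, that of slit and ROBO 0.42 (−0.41 with the mean of transcripts), EFNA4 0.29, NEO1 −0.40, ROBO1 0.85 and SEMA7A 0.94. These shifts follow from which transcript stands for a gene, except those of threshold, means of genes and PLXNC1. Another 32 values for medians and counts stayed within 0.1 or 1.5 times of the main one without a change of sign. No paired analysis was possible because values per library were not analysed and the table holds 1 comparison. For the same reason no library could be left out, and the depth behind each fold change is unknown.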

Other observations

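PLXNC1, the receptor of SEMA7A, entered none of the main counts or medians because its single row is a non-coding transcript, NR_037687, listed in the authors' deposited table at −0.83 (56.3% of control). Of the 37 members, 24 overlap another GENCODE gene and 18 one on the opposite strand, and the labels do not tell whether counting used strand. Overlaps are of whole gene spans, introns included, and the share over all genes was not worked out. EPHA1 shares 823 bases with ZYX on the opposite strand, and the authors' deposited table had them at −0.77 and 0.29. EPHB4 shares 702 bases with SLC12A9, also opposite, with medians of 0.10 and 0.90 from the authors' deposited table. PLXNB3 overlaps SRPK3 by 2935 bases on its own strand, and SLIT1 a read-through with ARHGAP19 by 32876. Whether reads were split between them cannot be told from such spans.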
